A study of Mus musculus with 4 samples.

Results

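The MYC and MAX network is a set of basic helix-loop-helix leucine zipper transcription factors that share the small protein MAX as partner. It was described here through 10 genes taken by symbol, namely Myc, Mycn, Max, Mxd1, Mxd3, Mxd4, Mxi1, Mnt, Mlx and Mga, out of the 24369 genes listed for each library. Naive CD4 T cells from the spleens of WT C57BL/6 mice were activated in non-polarizing culture with anti-CD3, anti-CD28 and IL-2. They were transduced on day 2 with an MSCV retrovirus, restimulated through CD3 on day 5 and sorted for GFP before RNA-seq. For the restimulation the methods of the study name anti-CD3, and its results name anti-CD3 and anti-CD28. The 2 EV RV libraries came from cells given the empty vector, which expresses GFP alone, and the 2 Tox RV libraries from cells given the vector that expresses Tox together with GFP. Tox is a nuclear HMG-box protein of activated and chronically stimulated T cells, and the comparison asks how its forced expression alters the transcripts of these cells. Activation, culture, IL-2, transduction, restimulation and sort were common to both groups, so no library shows resting or untransduced cells. Tox was driven by the retroviral vector and not by its own promoter. A legend of the study gives 2 mice for each group, and the sources used here do not say whether the EV RV and Tox RV libraries with the same number came from 1 mouse. The age and sex of the mice behind these libraries are not given in the sources used here.

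MYC and its relative MYCN bind DNA as heterodimers with MAX at the E-box and recruit histone acetyltransferases and elongation factors to promoters. MXD1, MXD3, MXD4, MXI1 and MNT compete for the same MAX, bind the same E-box and recruit the SIN3 and HDAC corepressor. MLX is a second hub, which pairs with the glucose-responsive MondoA and ChREBP and with some of the MXD proteins and MNT. MGA is a very large partner of MAX that belongs to the PRC1.6 repressor complex. In T cells MYC is induced by antigen receptor and CD28 signals and by IL-2, and it is required for the growth, glycolysis and proliferation that follow activation.

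The site itself is shown first, because every heterodimer of MAX reads it and some genes of the network carry it beside their own start. The canonical E-box CACGTG is its own reverse complement, so 1 search covers both strands and no match overlaps another kind of motif searched. It was looked for in 300 bases of RefSeq promoter sequence of GRCm38.p6, from 250 bases before to 50 bases after the listed start. Of 32851 such promoters, 7.15% held it. Counted by gene, with at least 1 promoter holding it, this was 8.09% of the 27025 genes with a promoter. Of the 10628 of them that were tested between the groups below, it was 11.2%. Of the 10 network genes, 9 had a promoter in the table, Myc being the one without, and 4 of the 9 held the E-box: Max, Mxd4, Mnt and Mlx. The start in that table can differ from the outermost end of the gene span given with each member further on. The windows of Max and Mlx lie inside those spans. The window of Mnt crosses the start of its span, and that of Mxd4 lies outside. Counted from the start in the table, the E-box began 3 bases before that of Max, 40 before that of Mlx, 123 before that of Mnt and 219 before that of Mxd4. The 30 bases around it are printed 5′ to 3′ on the strand of the gene, for Max and Mxd4 on the minus strand and for Mnt and Mlx on the plus strand, with the E-box in capitals. A pair from the lactate dehydrogenase gene Ldha, a MYC target described further on whose promoter holds the E-box in 2 places on the plus strand, is added for comparison.
Max, chr12:76962234-76962263: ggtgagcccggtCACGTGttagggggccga
Mxd4, chr5:34187912-34187941: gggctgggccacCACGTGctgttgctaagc
Mnt, chr11:74830789-74830818: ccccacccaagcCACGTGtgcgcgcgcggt
Mlx, chr11:101087238-101087267: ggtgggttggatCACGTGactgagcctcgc
Ldha, first E-box, chr7:46845647-46845676: ggtgtcgcagcaCACGTGgagccactcttg
Ldha, second E-box, chr7:46845744-46845773: cggcccagcctaCACGTGggttcccgcacg
These matches say only that the letters are present. Binding was not measured in these libraries.

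The depth was between 46989997 and 74548723 expected counts in the 4 libraries. Tox itself stood at 11.7 and 5.73 CPM in EV RV and at 121 and 99.9 CPM in Tox RV, in the direction the labels give (log2 fold change 3.68, adjusted p 0.490 by edgeR and 3.79e-24 by DESeq2). CPM here are counts per 1000000 after TMM scaling, a correction for composition. Of the T cell genes Cd4, Cd3d, Cd3e, Cd3g and Cd28, all 5 were detected, summing to between 1261 and 1750 CPM. The CD3 genes and Cd28 are shared with CD8 T cells. Cd4 alone stood at 384 and 324 CPM in EV RV and at 479 and 438 CPM in Tox RV. B cell markers summed to 1.16 to 1.62 CPM with Ms4a1 at 0, and myeloid markers to 0.959 to 1.45 CPM. CD8 T and NK cell markers summed to 55.5 and 16.3 CPM in EV RV and to 32.2 and 11.1 CPM in Tox RV, with Ncr1 at 0. Klrk1 stood at 36.6 and 10.5 CPM in EV RV and at 17.2 and 4.86 CPM in Tox RV. Klrd1 stood at 14.2 and 1.90 CPM in EV RV and at 10.2 and 1.99 CPM in Tox RV. Both were higher in replicate 1 of each group. Cd8a lay between 1.54 and 2.14 CPM and Cd8b1 between 1.73 and 3.21 CPM. EV RV replicate 1 stood apart from the other 3 libraries, at -53.8 on a first principal component that held 58.0% of the variance and on which the others lay between 5.70 and 25.8. The ribosomal precursor Rn45s accounted for 24.7% and 11.97% of all counts in the EV RV libraries and for 10.3% and 7.14% in the Tox RV libraries, and the part of this share, and of the CD8 T and NK cell markers, in the results below was not tested.

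Myc was the most abundant transcript of the network per length and was at a lower level in both Tox RV libraries than in either EV RV library, by a size that did not pass the test after adjustment. Mycn, Mxi1 and Mnt also lay lower in both Tox RV libraries, and Mlx lay higher in both. Max, the common partner, differed by little. For the other members, namely Mxd1, Mxd3, Mxd4 and Mga, the groups overlapped. Of the 10 members, all of which were expressed above the low-count filter, 0 had an adjusted p below 0.05 by the quasi-likelihood test of edgeR, against 0 of all 14143 genes tested (0%). At an unadjusted p below 0.05 there were 2 members, Myc and Mycn, both lower, where 2.55% of all genes were lower and 1.07% higher at that level (360 and 152 genes). DESeq2 called 22 of 19286 genes at an adjusted p below 0.05 (0.114%), none of them a member, and it put the same pair, Myc and Mycn, below an unadjusted 0.05. The groups did not overlap for 4 members that were lower and 1 that was higher in Tox RV, where 17.4% of all genes tested lay wholly lower and 18.6% wholly higher. The median log2 fold change of the members, Tox RV against EV RV, was -0.31, with 7 members below 0 and 3 above, against 0.0036 for all genes tested. That median became -0.08 once EV RV replicate 1 was left out and -0.54 once EV RV replicate 2 was. As these are bulk samples, fewer cells expressing a gene and less RNA per cell cannot be told apart.

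**Figure D1:**
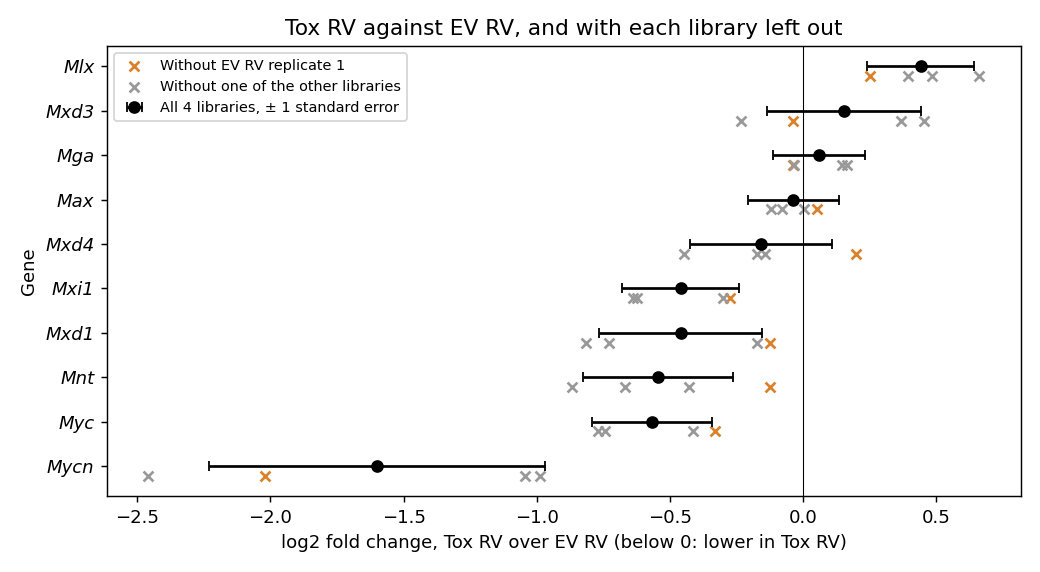
Log2 fold change of each member (horizontal axis), Tox RV over EV RV, from edgeR, with black points and bars of 1 SE for all 4 libraries and crosses for the values with 1 library left out, in orange for EV RV replicate 1. Myc lies at -0.57 and Mycn at -1.60, and the orange crosses of Myc (-0.33), Mnt (-0.13), Mxd1 (-0.12), Mxi1 (-0.28) and Mlx (0.25) are nearer to 0 than the black points.

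Among the activators, Myc lies at chr15:61985341-61990361 on the plus strand of GRCm38. Its normalized level was 226 CPM in EV RV replicate 1, 166 CPM in EV RV replicate 2, 147 CPM in Tox RV replicate 1 and 117 CPM in Tox RV replicate 2, from 9529, 12601, 9273 and 6090 counts. Both Tox RV libraries were below both EV RV libraries, and the gap between the nearest libraries of the groups was smaller than the gap within either group. The means were 196 CPM ± 42.6 (SD, n = 2) for EV RV and 132 CPM ± 20.6 (SD, n = 2) for Tox RV. The log2 fold change was -0.57 (SE 0.23, 95% interval -1.13 to -0.0098), which corresponds to 0.675 of the EV RV level, with an adjusted p of 0.897 in edgeR and an unadjusted p of 0.0472 in the same fit. In DESeq2 the unadjusted p was 0.0360 and the adjusted p 0.9995. Leaving out 1 library at a time gave -0.33 without EV RV replicate 1, -0.77 without EV RV replicate 2, -0.74 without Tox RV replicate 1 and -0.41 without Tox RV replicate 2. The direction held each time, which the separation of the groups made all but certain, so it is no added support. Without EV RV replicate 1 the size was over 1.5 times smaller. No adjusted p for Myc was below 0.05 under any alternative run on the full set of libraries.

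Mycn, the relative of MYC best known from neural tissue and early progenitors, lies at chr12:12936093-12941836 on the minus strand. It was read by 34 and 124 fragments in EV RV and by 14 and 31 in Tox RV, which gives 0.806 and 1.63 CPM against 0.221 and 0.598 CPM. The 4 libraries were all far below Myc, and both Tox RV libraries were below both EV RV libraries, although EV RV replicate 1 and Tox RV replicate 2 were close. The resulting log2 fold change of Mycn was -1.60 (SE 0.63, 95% interval -3.16 to -0.04), with an edgeR adjusted p of 0.897 and an unadjusted p of 0.0459. Leaving out single libraries moved it between -2.46, without Tox RV replicate 2, and -0.99, without EV RV replicate 2. Per transcript length, in TPM, Mycn stood at 0.55 and 1.06 in EV RV, against 0.14 and 0.37 in Tox RV, where Myc stood at 168 and 117 TPM and at 100.2 and 80.3 TPM.

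Max, at chr12:76937269-76962323 on the minus strand, encodes the partner that the MYC, MXD, MNT and MGA proteins have in common. It was at 65.7 and 57.9 CPM in EV RV and at 61.8 and 58.7 CPM in Tox RV. The 4 libraries lay within one narrow range and the groups overlapped. The log2 fold change was -0.04 (SE 0.17), with a 95% interval from -0.46 to 0.38 and an edgeR adjusted p of 0.973. Its sign turned positive with scaling by library totals, to 0.09.

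Of the MXD family, Mxd1, an antagonist that is typically raised as cells stop dividing, is at chr6:86647044-86669234 on the minus strand. It stood at 90.8 and 59.1 CPM in EV RV and at 66.2 and 42.7 CPM in Tox RV. The highest value was in EV RV replicate 1 and the lowest in Tox RV replicate 2, with the other two between them in crossed order. On the log2 scale the fold change was -0.46 (SE 0.31, 95% interval -1.21 to 0.29, edgeR adjusted p 0.897), and it was -0.12 without EV RV replicate 1 and -0.82 without Tox RV replicate 1.

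Mxi1, also called Mxd2, lies at chr19:53310128-53373293 on the plus strand and encodes an antagonist with the SIN3 interaction domain of the family. It stood at 41.8 and 32.5 CPM in EV RV and at 23.8 and 30.3 CPM in Tox RV. The groups did not overlap, with Tox RV replicate 2 just under EV RV replicate 2. This gave a log2 fold change of -0.46 (SE 0.22, edgeR unadjusted p 0.0834, adjusted p 0.897), and leaving out single libraries gave values between -0.64 and -0.28, the latter without EV RV replicate 1.

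Mxd3, which unlike the others of its family is found in dividing cells, stood at 15.4 and 20.2 CPM in EV RV and at 15.1 and 24.5 CPM in Tox RV. The Tox RV libraries enclosed the EV RV libraries. Its log2 fold change was 0.15 (SE 0.29, edgeR adjusted p 0.930), between -0.23 and 0.45 when libraries were left out, so that even its sign depended on single libraries. Mxd4 stood at 15.5 and 9.84 CPM in EV RV and at 11.2 and 11.5 CPM in Tox RV, with a log2 fold change of -0.16 (SE 0.27, edgeR adjusted p 0.922). Both EV RV values lay outside the pair of Tox RV values, 1 on each side, and the sign of Mxd4 turned to 0.20 without EV RV replicate 1. Mxd3 is at chr13:55325170-55329900 and Mxd4 at chr5:34176580-34187710, both on the minus strand.

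Mnt, at chr11:74830806-74845725 on the plus strand, encodes the most widely expressed antagonist, present in resting and dividing cells alike. It stood at 71.3 and 42.2 CPM in EV RV and at 42.0 and 35.8 CPM in Tox RV. EV RV replicate 1 was far above the others, and EV RV replicate 2 and Tox RV replicate 1 were nearly equal, so that the groups were apart by a narrow margin. Its fitted log2 fold change was -0.54 (SE 0.28, 95% interval -1.24 to 0.15, edgeR adjusted p 0.897). With EV RV replicate 2 left out, EV RV replicate 1 was the only EV RV library, and the value was -0.87. With EV RV replicate 1 left out the value was -0.13.

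**Figure D2:**
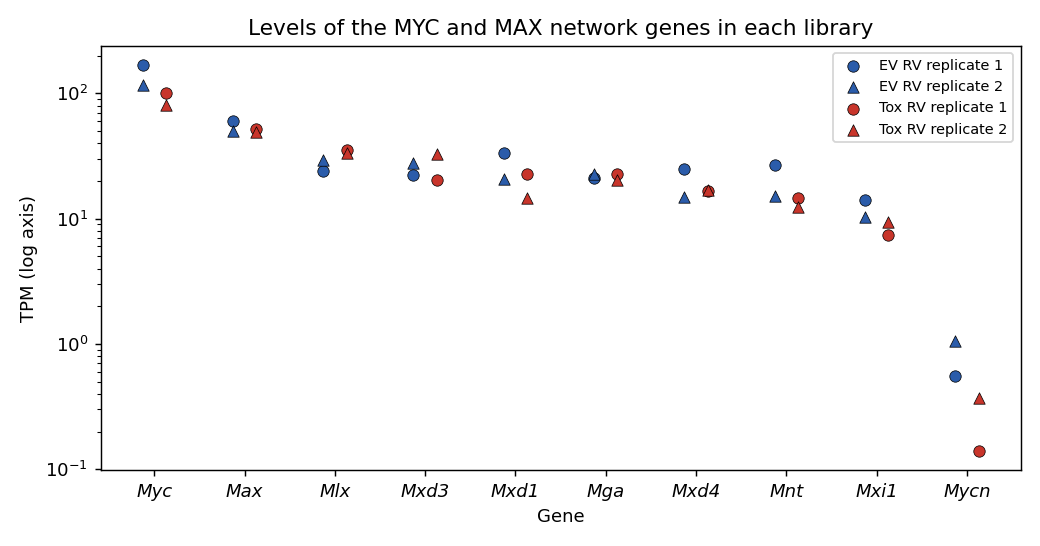
TPM of the 10 members (log axis) in each library, in blue for EV RV and red for Tox RV, with circles for replicate 1 and triangles for replicate 2. Myc runs from 168 to 80.3 TPM and Mycn from 1.06 to 0.14 TPM, and the 6 members between Max and Mxi1 lie close together.

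Mlx, the second hub, was the single member at a higher level in both Tox RV libraries. It lies at chr11:101086707-101092207 on the plus strand and stood at 24.3 and 32.0 CPM in EV RV and at 39.4 and 37.2 CPM in Tox RV. EV RV replicate 1 was lowest and the Tox RV libraries were close to each other. On the log2 scale the fold change was 0.44 (SE 0.20, 95% interval -0.06 to 0.94), or 1.36 times the EV RV level, with an edgeR adjusted p of 0.897. It was 0.25 without EV RV replicate 1 and 0.66 without EV RV replicate 2.

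Mga, at chr2:119872503-119970129 on the plus strand, encodes the scaffold that carries both a T-box and a MAX-binding domain. By counts it was of the order of Myc, at 172 and 197 CPM in EV RV and at 204 and 181 CPM in Tox RV, whereas per length it lay between 20.4 and 22.9 TPM. The groups overlapped fully. This gave a log2 fold change of 0.06 (SE 0.17, 95% interval -0.37 to 0.49, edgeR adjusted p 0.952), and its sign turned with the scale, to -0.02 by limma on log2(TPM + 1).

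Since use of strand in counting is not stated, members that share exon bases with a gene on the opposite strand are uncertain to that extent. This concerned Mxd3, which shares 105 of its 2369 exon bases with Prelid1, Mxd4 with 514 of 8483 shared with the antisense gene Gm42846, Mxi1 with 194 of 6823 shared with Gm10197 and Mlx with 385 of 1999 shared with Psmc3ip. The other members shared none in the annotation used.

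Levels of different members can be compared per length, in TPM. Myc ranked 1, Max 2, Mxi1 9 and Mycn 10 in each of the 4 libraries. Myc averaged 142 TPM ± 36.0 (SD, n = 2) in EV RV and 90.3 TPM ± 14.1 in Tox RV, and Max averaged 54.8 TPM ± 6.87 and 50.4 TPM ± 1.83. The 6 members in the middle of the EV RV order had means from 19.9 TPM for Mxd4 through 20.9 for Mnt, 21.9 for Mga, 25.2 for Mxd3 and 26.8 for Mlx to 27.2 TPM for Mxd1. Neighbours among these 6 differed by less than the spread of the EV RV libraries, which was 9.04 TPM (SD) for Mxd1 and 8.26 TPM for Mnt. In Tox RV, Mlx ranked 3 at 34.5 TPM ± 1.29 (SD, n = 2), followed by Mxd3 at 26.5, Mga at 21.6, Mxd1 at 18.6, Mxd4 at 16.7 and Mnt at 13.4 TPM. There too the steps from Mlx through Mxd3, Mga and Mxd1 to Mxd4 were within the spread of one neighbour or the other, the SD of Mxd3 being 8.90 TPM and that of Mxd1 5.66 TPM, whereas Mnt lay below Mxd4 by more than both spreads. Mxi1, at 12.2 TPM in EV RV and 8.39 TPM in Tox RV, lay below all of these in each library.

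The balance between the transcripts of activator and antagonists was read from ratios of TPM within a library. The proteins and their heterodimers were not measured. Myc over Max was 2.81 and 2.34 in EV RV, against 1.94 and 1.64 in Tox RV. The 5 antagonists Mxd1, Mxd3, Mxd4, Mxi1 and Mnt summed to 122 and 89.1 TPM in EV RV and to 81.2 and 86.1 TPM in Tox RV. Both quantities were lower in each Tox RV library than in either EV RV library. Set against Myc, the sum of the antagonists was 0.725 and 0.762 in EV RV, against 0.810 and 1.07 in Tox RV, the highest ratio being in Tox RV replicate 2. Myc made up 53.9% and 50.8% of the summed TPM of the MAX partners in EV RV, against 49.0% and 42.9% in Tox RV. All partners together exceeded Max 5.21 and 4.60 times in EV RV, against 3.96 and 3.81 times in Tox RV. The ratio of Mlx to Max was 0.402 and 0.593 in EV RV, against 0.685 and 0.684 in Tox RV. For each of these 6 quantities the groups were apart. Each gave a two-sided exact permutation p of 0.333, the smallest that 2 against 2 libraries allow, and 0.381 after Benjamini-Hochberg adjustment over the 8 quantities compared. The 6 share genes with one another and are not independent. Of all single genes tested, 17.4% lay wholly lower in Tox RV and 18.6% wholly higher. Myc over Mxd1 was 4.99 and 5.62 in EV RV, against 4.44 and 5.52 in Tox RV, where the groups overlapped (two-sided exact permutation p 0.667). The 10 members summed to 395 and 309 TPM in EV RV and to 291 and 269.8 TPM in Tox RV, again apart with a two-sided exact permutation p of 0.333.

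**Figure D3:**
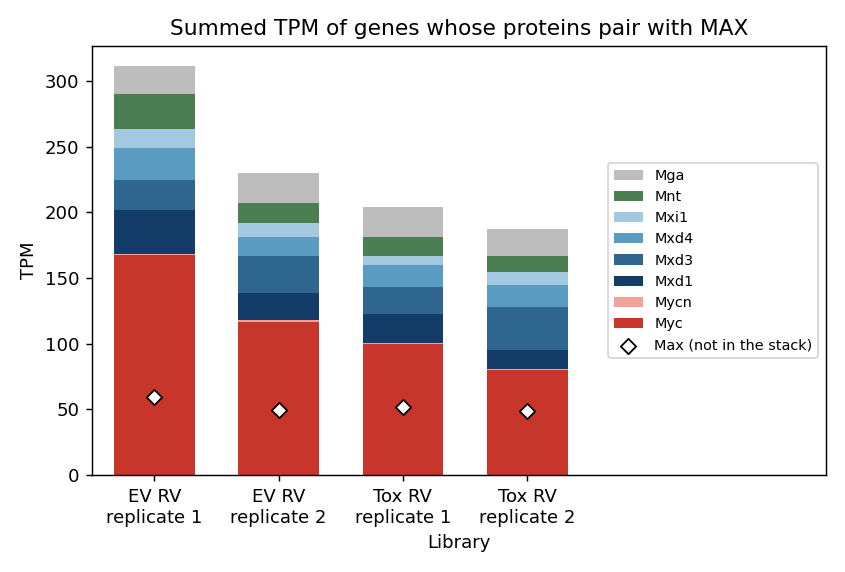
Stacked bars of the TPM of the 8 members whose proteins pair with MAX in each library, with the TPM of Max itself as a diamond that is not part of the stack. Myc, the lowest block, takes 53.9% of the stack in EV RV replicate 1 and 42.9% in Tox RV replicate 2, while the diamonds lie between 49.1 and 59.7 TPM.

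The level of Myc followed the order EV RV replicate 1, EV RV replicate 2, Tox RV replicate 1 and Tox RV replicate 2 from highest to lowest. Mnt followed it too, as did the Rn45s share of each library given above, and 1015 of all genes tested (7.18%) were in that order. Rn45s had a log2 fold change of -1.23 (edgeR adjusted p 0.897, unadjusted p 0.0275), which was -0.49 without EV RV replicate 1. Taking Rn45s out of the table before TMM scaling left Myc at -0.58. That value covers the scaling only, and whether the cells or the preparation set both levels was not tested. The genes nearest to Myc over the 4 libraries, by Euclidean distance between centred log2 CPM among the 3896 genes with a mean of at least 50 CPM, were Slco3a1 (distance 0.0446), Dcdc2c (0.0740), Zfp488 (0.0866), Eif5b (0.102) and Ncl (0.104). Without EV RV replicate 1 the log2 fold changes of the first 4 lay between -0.31 and -0.26. Eif5b is a translation initiation factor and Ncl is nucleolin. A distance over 4 libraries is a description, and genes that share the order of the libraries are many.

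**Figure D4:**
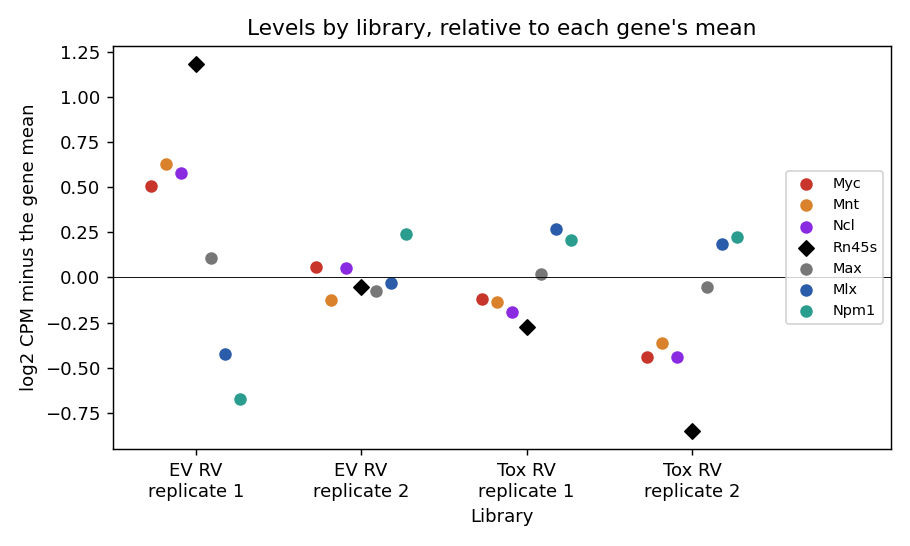
Log2 CPM of Myc, Mnt, Ncl, Rn45s, Max, Mlx and Npm1 in each library, as the difference from the mean of the gene over the 4 libraries. Myc, Mnt, Ncl and Rn45s are highest in EV RV replicate 1 and lowest in Tox RV replicate 2, whereas Mlx and Npm1 are lowest in EV RV replicate 1.

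Proteins that act beside the network were read from 10 lists that together hold 150 genes, of which 149 were tested (all except Mlxipl, which encodes ChREBP). None of the 149 was called by edgeR at an adjusted p below 0.05 (0% of all genes) or by DESeq2. At an unadjusted p below 0.05 in edgeR, 1 gene was higher and 5 were lower. The groups were apart for 20 genes that were higher and 23 that were lower, which is 13.4% and 15.4% of the 149, where 18.6% and 17.4% of all genes tested were so. At the unadjusted p, 1.07% of all genes were higher and 2.55% lower. Over all genes tested, 7135 log2 fold changes were above 0 and 7008 below. These shares over all genes are the background for the counts of each list below, and no list was tested as a set.

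Of the 8 other network proteins tested, 2 lay wholly higher and 1 wholly lower in Tox RV, with a median log2 fold change of -0.02. Mlxip, which encodes MondoA, the glucose sensor that dimerizes with MLX, stood at 124 and 65.3 CPM in EV RV and at 71.2 and 54.4 CPM in Tox RV. Its groups overlapped, and its log2 fold change of -0.59 (SE 0.34) became -0.062 without EV RV replicate 1. The MYC-binding ubiquitin ligase gene Mycbp2 was at -0.13 and the E-box factor gene Usf2 at 0.05 on the log2 scale of fold changes, and both signs turned without EV RV replicate 1.

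Of the 13 genes of the SIN3 and HDAC corepressor, through which the MXD proteins and MNT repress, 1 lay wholly higher and 2 wholly lower, with a median log2 fold change of 0.02. Rbbp7, a histone chaperone, was at 0.32, the nuclear corepressor Ncor1 at -0.13 and the Groucho protein Tle3 at 0.21. Without EV RV replicate 1 these were 0.025, 0.051 and 0.90. Of the 14 MYC coactivators, 1 lay wholly higher and 4 wholly lower, and the median was -0.22, or -0.05 without EV RV replicate 1. The abundant members Trrap and Ep400, scaffolds of acetyltransferase and remodelling complexes, had log2 fold changes of -0.40 and -0.51, and the remodeller subunit Bptf one of -0.33. Without EV RV replicate 1 these were -0.045, -0.13 and -0.15.

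Of the 18 genes of MYC stability and turnover, 2 lay wholly higher and 5 wholly lower, with a median of 0.07. Huwe1, a ubiquitin ligase for MYC, stood at 808 and 701 CPM in EV RV and at 596 and 574 CPM in Tox RV, with the groups apart (log2 fold change -0.37, SE 0.17, edgeR adjusted p 0.897). Set, an inhibitor of the phosphatase PP2A, was at 0.19 and the kinase gene Pim1 at -0.17, and without EV RV replicate 1 these were -0.082 and -0.27. Pim2, another kinase of that family, which phosphorylates MYC and 4E-BP1, stood at 72.0 and 64.3 CPM in EV RV and at 45.0 and 40.2 CPM in Tox RV. The replicates of each group were close and the gap between groups was wider than either spread. Its log2 fold change was -0.68 (SE 0.17, 95% interval -1.11 to -0.25, edgeR unadjusted p 0.00883, adjusted p 0.897), and it stayed between -0.77 and -0.60 when single libraries were left out. Pim2 is named after its values were seen. Of the 10 PRC1.6 partners of MGA, 1 lay wholly higher and 1 wholly lower, with a median of 0.14. Tfdp1, Cbx3 and L3mbtl2, which supply the E2F partner, a heterochromatin protein and a histone reader to that complex, had log2 fold changes of 0.15, 0.14 and 0.13, all below 0 without EV RV replicate 1.

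Genes widely described as induced by MYC had no stable direction as a group, and a link to the level of Myc was not tested. Of 74 such genes in 4 lists, 60 had a log2 fold change above 0 and 14 below, with a median of 0.16. Of all genes tested, 7135 were above 0 and 7008 below. Among them 13 lay wholly higher in Tox RV and 7 wholly lower, or 17.6% and 9.46% of the list, against 18.6% and 17.4% of all genes. This rested on EV RV replicate 1: without it 25 were above 0 and 49 below, with a median of -0.04, and without EV RV replicate 2 the median was 0.43. The direction for these 74 genes is therefore not a stable description of the comparison.

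By list, the 20 nucleolar genes had a median of 0.26, with 18 above 0 and 2 below, and the 2 were Ncl and Mybbp1a. Npm1, the nucleolar chaperone nucleophosmin, stood at 747 CPM in EV RV replicate 1 and at 1410 CPM in EV RV replicate 2, against 1378 and 1390 CPM in Tox RV. Only EV RV replicate 1 was low, and the log2 fold change of 0.36 (SE 0.31) became -0.03 without it. Ncl, nucleolin, went the other way at 585 and 407 CPM in EV RV, against 343 and 289 CPM in Tox RV (log2 fold change -0.65, SE 0.23, edgeR adjusted p 0.897), and was -0.37 without EV RV replicate 1. Mybbp1a, a repressor of ribosomal transcription, was at -0.25, or -0.016 without EV RV replicate 1.

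The 26 metabolic genes had a median log2 fold change of 0.13, with 20 above 0, and only 2 lay wholly higher and 2 wholly lower. Among the glycolytic enzymes Pkm stood at 1788 and 2602 CPM in EV RV and at 2623 and 2932 CPM in Tox RV, Ldha had a log2 fold change of 0.19 and Eno1 one of 0.29. Without EV RV replicate 1 Pkm moved from 0.34 to 0.087, Ldha to -0.081 and Eno1 to 0.085. The 14 genes of translation and chaperones had a median of 0.21, with 5 wholly higher and 2 wholly lower. Hsp90ab1, the constitutive HSP90, stood at 1878 and 2504 CPM in EV RV and at 2759 and 2860 CPM in Tox RV. The helicase Eif4a1 was at 923 and 1436 CPM in EV RV and at 1576 and 1451 CPM in Tox RV, and its scaffold partner Eif4g1 had a log2 fold change of 0.0086. Hsp90ab1 and Eif4a1 both had log2 fold changes of 0.36, which became 0.16 and 0.069 without EV RV replicate 1. Eif4ebp1, the translation repressor 4E-BP1, stood at 34.9 and 33.9 CPM in EV RV and at 23.2 and 22.8 CPM in Tox RV. Its replicates nearly coincided, and its log2 fold change of -0.58 (SE 0.16, edgeR unadjusted p 0.0131, adjusted p 0.897) lay between -0.60 and -0.56 with single libraries left out. It is likewise named after its values were seen.

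The 14 cell cycle genes had a median log2 fold change of 0.08, or -0.22 without EV RV replicate 1, with 1 wholly higher and 2 wholly lower. Ccnd2, cyclin D2, stood at 793 and 758 CPM in EV RV and at 617 and 497 CPM in Tox RV (log2 fold change -0.48, SE 0.18, edgeR unadjusted p 0.0394, adjusted p 0.897). Its groups were apart and its value lay between -0.65 and -0.33 when single libraries were left out. The replication licensing genes Mcm5 and Mcm4 were at 0.12 and 0.0072, with overlapping groups. Id2, an inhibitor of helix-loop-helix factors and the 1 higher gene at an unadjusted p below 0.05, stood at 80.5 and 150 CPM in EV RV and at 244 and 171 CPM in Tox RV (log2 fold change 0.85, SE 0.34, edgeR adjusted p 0.897). It too is named after its values were seen, and it was at 0.46 without EV RV replicate 1.

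Of the 12 genes that MYC is known to repress, 1 had a log2 fold change above 0 and 11 below, with a median of -0.27. Among them 3 (25%) lay wholly lower and 0 wholly higher, against 17.4% and 18.6% of all genes tested. Without EV RV replicate 1 the median was -0.03, with 5 above 0 and 7 below. The abundant members were Btg1, an antiproliferative gene of quiescent lymphocytes, at -0.17, Txnip, an inhibitor of glucose uptake and a target of MondoA and MLX, at -0.35, and Cdkn1a, the cyclin-dependent kinase inhibitor p21, at -0.32. Without EV RV replicate 1 these were 0.39 for Btg1, 0.45 for Txnip and -0.048 for Cdkn1a. Txnip stood at 565 and 227 CPM in EV RV and at 351 and 272 CPM in Tox RV, so that the EV RV libraries enclosed the Tox RV libraries.

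**Figure D5:**
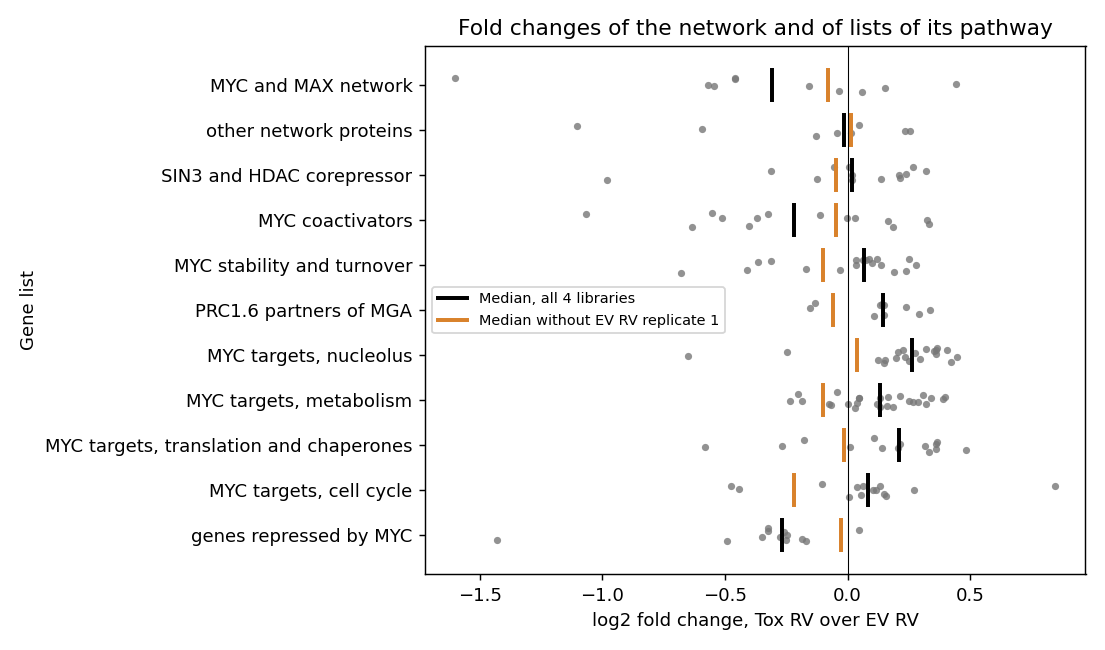
Log2 fold change, Tox RV over EV RV, of each member and each list gene tested as grey points, with the median of each list over all 4 libraries as a black bar and without EV RV replicate 1 as an orange bar. The medians of the 4 lists of MYC targets lie between 0.08 and 0.26 with all libraries and between -0.22 and 0.04 without EV RV replicate 1.

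The share of promoters with the E-box in the lists is a property of the sequences and not of the comparison. Of the 61 MYC targets with a promoter in the table, 15 (24.6%) held CACGTG, against 11.2% of the 10628 genes tested that had one. The median log2 fold change was 0.19 for these 15 and 0.18 for the 46 without the E-box. Over all genes tested the medians were 0.04 with the E-box and 0.0032 without. Among the members, the 4 with the E-box, Max, Mxd4, Mnt and Mlx, had a median of -0.10 and the 5 without it, which were Mycn, Mxd1, Mxd3, Mxi1 and Mga, one of -0.46. Both subsets held members on either side of 0.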

How the data were processed

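RNA-seq of GFP+ CD4 T cells was analysed in 2 EV RV and 2 Tox RV libraries, grouped by their labels. The methods name fastqc, bowtie and RSEM with mm10 transcripts, and the submitters' processing notes list Bowtie and Bowtie2; the version of RSEM is not given in the sources used here. The authors deposited expected counts, which RSEM estimates for each gene without normalization, and the deposited TPM values are its length-corrected levels, with a sum of 1000000 a library. The deposited effective lengths from RSEM, in bases, served an alternative for levels. A further table of the authors named as TPM did not have that sum and was not used here. Columns of values left out of the library files numbered 0.

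Rounded expected counts entered edgeR 4.0.16 (R 4.3.3): filterByExpr with a minimum count of 10, TMM scaling, and the quasi-likelihood test with no block, with Benjamini-Hochberg adjustment over 14143 genes. The common biological coefficient of variation was 0.232. SE and 95% intervals come from that fit. The libraries held 46989997 (EV RV replicate 1), 74548723 (EV RV replicate 2), 61442264 (Tox RV replicate 1) and 49012254 (Tox RV replicate 2) expected counts, so counting error is small for the members other than Mycn. P-values measure the spread between these libraries. With a library left out, its group holds 1 library and the spread of that group is not measured. Alternatives were DESeq2 1.42.0 (the tool in the methods), other scalings, no filter, the replicate number as a block, limma 3.58.1 on log2(TPM + 1) or log2(TPM + 0.1) of genes with at least 1 TPM in 2 libraries, and each library left out. Both count tests were tested on simulated data. A gene at or below 3 counts was treated as at the floor.

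Named were the 10 members, the 3 most abundant genes of each list, any list gene called, Tox, Rn45s and the 5 genes nearest to Myc; 3 others are marked. A gene of the lists is not reported here. The members and lists were chosen with earlier results of these data known. Promoters are from RefSeq (GRCm38.p6), and exon overlaps from GENCODE for GRCm38.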

Additional observations from a re-analysis of the deposited data

How the results depend on the processing

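Under all alternatives run, Myc, Mycn, Mxd1, Mxi1, Mnt and Mlx kept the sign of their log2 fold change where they were tested. For Myc, Mycn, Mxi1, Mnt and Mlx the groups did not overlap, so leaving out 1 library could hardly turn the sign. With all 4 libraries in the fit, 0 members were called under any alternative. Scaling by library totals moved the median log2 fold change of all genes from 0.0036 to 0.12. With that scaling Max turned to 0.090, Mycbp2 to 0.0030 and Ncor1 to 0.0067, and the list medians were 0.32 for translation and chaperones, 0.14 for the SIN3 and HDAC corepressor and 0.11 for the other network proteins. With limma on log2(TPM + 1), with or without the filter on low values, Mga was at -0.022, Usf2 at -0.034, Eif4g1 at -0.074, Mcm4 at -0.079 and the corepressor median at -0.060, and on log2(TPM + 0.1) these were -0.023, -0.035, -0.074, -0.080 and -0.063. Mcm4 also turned with median-of-ratios scaling (-0.00036) and with TMM without Rn45s (-0.0010). The genes called numbered 22 with DESeq2, 22 with no low-count filter and 16 with the replicate block, none of them a member. The block lowered the unadjusted edgeR p of 6 members below 0.05 (1232 of all genes), where the unblocked fit had 2 (512 of all genes). With scaling by library totals the number of such members was 0 (465 of all genes). It was 3 with no low-count filter (996 of all genes) and 1 with each limma setting (467 to 784 of all genes). The replicate numbers were not taken as pairs, since only a number is shared. Over genes, the log2 difference of EV RV replicate 1 minus 2 correlated at 0.302 with that of Tox RV replicate 1 minus 2. Same-numbered libraries thus deviated alike to that extent, and whether they came from 1 mouse was not tested.

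Leaving out single libraries gave 1 to 600 genes called, 0 to 1 members and 0 to 22 list genes, the highest counts without EV RV replicate 2. The median of the members ran from -0.54 to -0.08. List medians ran from -0.048 to 0.12 for the SIN3 and HDAC corepressor, -0.35 to -0.045 for the coactivators, -0.10 to 0.23 for stability and turnover, -0.059 to 0.38 for the PRC1.6 partners, 0.039 to 0.53 for the nucleolar targets, -0.10 to 0.41 for the metabolic, -0.015 to 0.50 for translation and chaperones, -0.22 to 0.45 for the cell cycle and -0.50 to -0.026 for genes repressed by MYC. The log2 fold changes that changed sign ran from -0.12 to 0.051 for Max, -0.23 to 0.45 for Mxd3, -0.45 to 0.20 for Mxd4, -0.040 to 0.17 for Mga, -0.31 to 0.080 for Mycbp2, -0.28 to 0.051 for Ncor1, -0.26 to 0.90 for Tle3, -0.082 to 0.18 for Usf2, -0.082 to 0.52 for Set, -0.10 to 0.44 for Tfdp1, -0.17 to 0.51 for Cbx3, -0.039 to 0.33 for L3mbtl2, -0.034 to 0.90 for Npm1, -0.081 to 0.51 for Ldha, -0.032 to 0.049 for Eif4g1, -0.24 to 0.23 for Mcm4, -0.25 to 0.60 for Mcm5, -0.57 to 0.39 for Btg1 and -0.85 to 0.45 for Txnip. The cause of these changes was not tested. The log2 ratio of mean Myc levels, Tox RV over EV RV, was -0.66 in TPM and -0.57 in TMM-scaled counts per kilobase of effective length. The 95% interval of Mnt, whose EV RV libraries lay far apart, spanned -1.24 to 0.15. Those of Myc (-1.13 to -0.0098) and Mycn (-3.16 to -0.04) were wide too, with upper ends just below 0. These intervals are not adjusted for the number of genes tested.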
